A study of Mus musculus with 8 samples.

Results

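The genes described here encode the mitochondrial ribosome, complexes I and IV of the respiratory chain with their assembly factors, and the protein import channels of mitochondria. They were chosen by name, as every gene in the deposited m6A peak lists called Mrpl or Mrps with a number, Nduf, Cox with a number, Timm with a number or Tomm with a number. This gave 52 genes of 5987 gene names with a peak in at least 1 list, and they are called the mitochondrial members below. The muscle was gastrocnemius, in the calf, taken from male mice of the C57BL/6 strain aged 10 weeks. The denervated group had been without its nerve supply for 14 days, and the innervated group was the untreated muscle of the opposite leg. Each group had 2 replicates, and each replicate had an immunoprecipitated library and an input library, 8 libraries in all. The peak lists belong to the 4 immunoprecipitated libraries, named innervated 1, innervated 2, denervated 1 and denervated 2 here and given in that order wherever 4 values stand together. The labels do not say whether equal numbers mark 1 animal, nor that the 2 replicates of a group came from different animals, so spreads and p-values cover these samples only and may be technical.

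N6-methyladenosine (m6A) is a methyl mark that the METTL3 and METTL14 writer complex places on adenosines of messenger RNA, mostly within a short sequence with the core GGAC or a close variant. In most mammalian tissues the mark gathers around stop codons and in 3′ untranslated regions, where reader proteins bind it and affect the stability and translation of the transcript. In m6A MeRIP-seq, fragmented RNA is captured with an antibody against the mark, and a peak is a stretch that the captured library covers more than its input does. Nearly all mitochondrial proteins are made from nuclear genes and imported through the TOM and TIM complexes. The mitochondrial ribosome translates the few proteins that mitochondrial DNA encodes, which are core subunits of the respiratory chain. Muscle without nerve supply is known to waste and to lose mitochondrial content.

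The peak lists held 9327 to 10300 peaks in 4153 to 4647 genes. Reads were not analysed here, so the depth of each library is unknown, and a call depends on how abundant a transcript is as well as on its methylation. In a bulk sample, fewer cells of a type and less RNA per cell cannot be told apart. None of the 12 muscle fibre markers, among them Acta1, Ckm, Ttn and Myh4, was listed in any library, whereas 4 of 5 endothelial, 2 of 4 fibroblast, 2 of 3 satellite cell and 1 of 4 Schwann cell markers were, and 0 of 4 macrophage markers. None of these markers was called in both libraries of 1 group and in neither of the other. The labelled tissue could thus not be checked by its own markers. A missing peak does not show that a transcript was absent or unmethylated.

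In these name families, ribosomal, assembly and import genes often had a peak in at least 1 library, and subunits of complexes I and IV almost never. RefSeq (GRCm38.p6, the assembly of mm10) annotates 179 protein-coding genes in the same name families, and 53 of them (29.6%) had a peak in at least 1 library, against 26.4% of 21721 other protein-coding genes. The 53 include Timm29, a subunit of the TIM22 carrier translocase, which the lists hold under an older name and which is therefore not among the members. Of the large subunit genes Mrpl, 23 of 49 (46.9%) had a peak, and of the small subunit genes Mrps, 11 of 29 (37.9%). Only 1 of 41 genes with Nduf subunit names (2.44%) and 1 of 18 with Cox subunit names (5.56%) had one. The shares for their assembly factors were 3 of 8 for complex I (37.5%) and 3 of 9 for complex IV (33.3%). Among the import genes, 6 of 15 Timm (40%) and 5 of 10 Tomm genes (50%) were listed. Shares with a peak in all 4 libraries were 17.9% of ribosomal, 11.8% of assembly, 12.0% of import and 1.69% of subunit genes. Of other protein-coding genes 13.0% had a peak in all 4, more than the assembly and import genes. These are counts over genes of 4 lists, and the shares were not tested against each other.

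**Figure D1:**
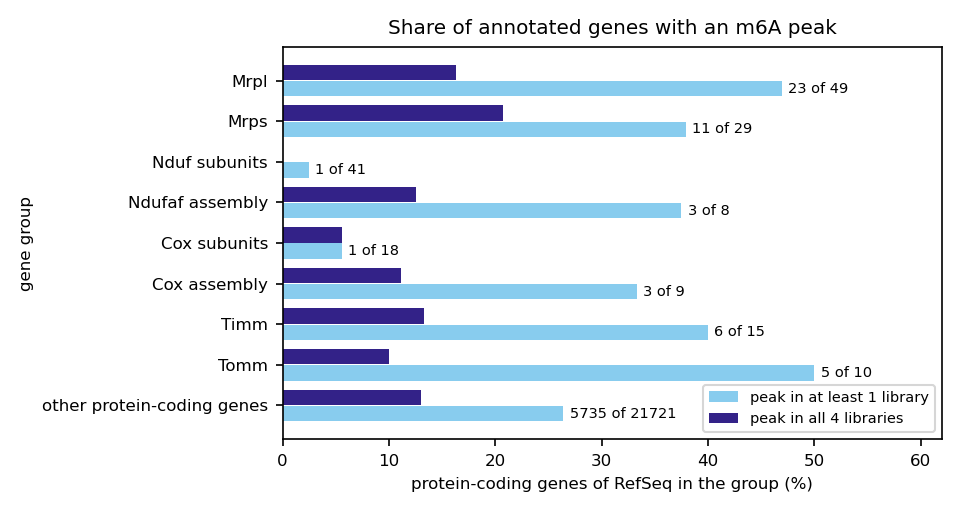
Percent of RefSeq protein-coding genes with an m6A peak in at least 1 library (light bars) and in all 4 libraries (dark bars), by gene family, with the counts of genes beside the light bars. In the light bars the Nduf subunits stand at 1 of 41 and the Cox subunits at 1 of 18. The light bar of every other family lies above the 26.4% of other protein-coding genes.

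Gene length was set beside these shares. Among other protein-coding genes the median span was 26386 bases with a peak and 14632.5 without, while among ribosomal genes it was 5691 with a peak and 8800.5 without. Among genes with a span under 10000 bases, 26 of 55 ribosomal genes (47.3%) and 0 of 41 complex I and IV subunit genes had a peak, against 1281 of 7818 other protein-coding genes (16.4%). The ribosomal share was thus above the subunit share among short genes also. The limit of 10000 bases was set after the data were seen, and spans include introns. The part of transcript length in the contrast was not tested. The abundance of these transcripts in the inputs was not analysed here.

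All but 1 of the genes with Nduf subunit names, from Ndufa1 to Ndufv2, were without a listed peak. So were Cox4i1, Cox5a, Cox6a2, Cox7a1 and Cox8b, which include the isoforms typical of muscle. The listed complex I subunit was Ndufv3, an accessory subunit of the arm that oxidises NADH, with 1 peak of 395 bases in denervated 2 alone (chr17:31527434-31527828). Under the Cox subunit names the listed gene was Cox7a2l, which is known mainly as an assembly factor of respiratory supercomplexes. Assigning peaks to any RefSeq gene span they overlap, instead of to the gene named in the list, added 3 genes and made 55. These were Timm29 in innervated 2 and denervated 2, Cox7a2 in denervated 1, where its peaks are listed under Tmem30a, and Mrps6 in all 4 libraries, where they are listed under Slc5a3, a transporter gene whose span it overlaps.

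The members were called in all 4 libraries less often by count than other genes were. Of the 52, 20 (38.5%) had a peak in all 4 libraries, where 48.9% of the 5935 other called genes did. The 95% Wilson interval of the member share, 26.5% to 52.0%, contained the share of other genes. It counts genes of the same 4 lists, and the shares were not tested against each other. Another 8 members (15.4%) were called in 3 libraries and 13 (25.0%) in 2, against 16.5% and 15.0% of other genes. The remaining 11 (21.2%) were called in 1 library, where the share of other genes was 19.6%. Of the small subunit genes 6 of 11 were called in all 4 libraries, and the large subunit genes split between 8 of 23 in all 4 and 9 of 23 in 2. Members outside the ribosome were called in all 4 libraries in 6 of 18 cases. The intervals of these smaller sets were wider. They ran from 28.0% to 78.7% for Mrps, 18.8% to 55.1% for Mrpl and 16.3% to 56.3% outside the ribosome.

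**Figure D2:**
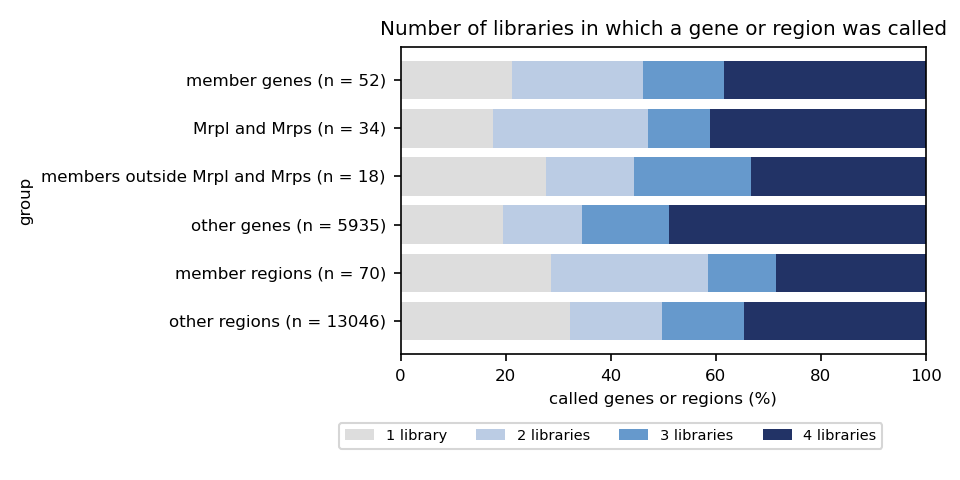
Percent of called genes or regions found in 1, 2, 3 or 4 of the 4 libraries, as stacked bars, for all 52 members, the ribosomal and other members, other genes, and the regions of both. The segment for 4 libraries covers 38.5% of the member genes and 48.9% of other genes.

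Library by library, 29, 43, 39 and 30 members had a peak. Innervated 2 and denervated 1, the longest lists, held the most members and innervated 1 and denervated 2 the fewest, so the groups overlapped fully. The means were 36.0 ± 9.90 genes (SD, n = 2) in innervated and 34.5 ± 6.36 (SD, n = 2) in denervated muscle, a difference of -1.5 that an exact two-sided permutation test did not separate from 0 (p = 1; the smallest p that 2 against 2 allows is 0.333). Member peaks numbered 33, 56, 50 and 38. Their means were 44.5 ± 16.3 (SD, n = 2) and 44.0 ± 8.49 (SD, n = 2), with a difference of -0.5 (exact permutation p = 1). Within each group the libraries differed by far more than the groups did.

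The order of the lists also showed in single genes. All 29 members of innervated 1 were found in another library, while 6 members (11.5%) were called in innervated 2 alone, 3 (5.77%) in denervated 1 alone and 2 (3.85%) in denervated 2 alone. Of other genes, 3.13%, 5.96%, 6.18% and 4.28% were called in the respective library alone. The commonest pattern of 2 libraries crossed the groups: 6 members (11.5%), namely Mrpl13, Mrpl27, Mrpl57, Mrps24, Tomm40l and Tomm6, were called in innervated 2 and denervated 1 only, against 3.4% of other genes. The part of depth in this pattern was not tested.

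**Figure D3:**
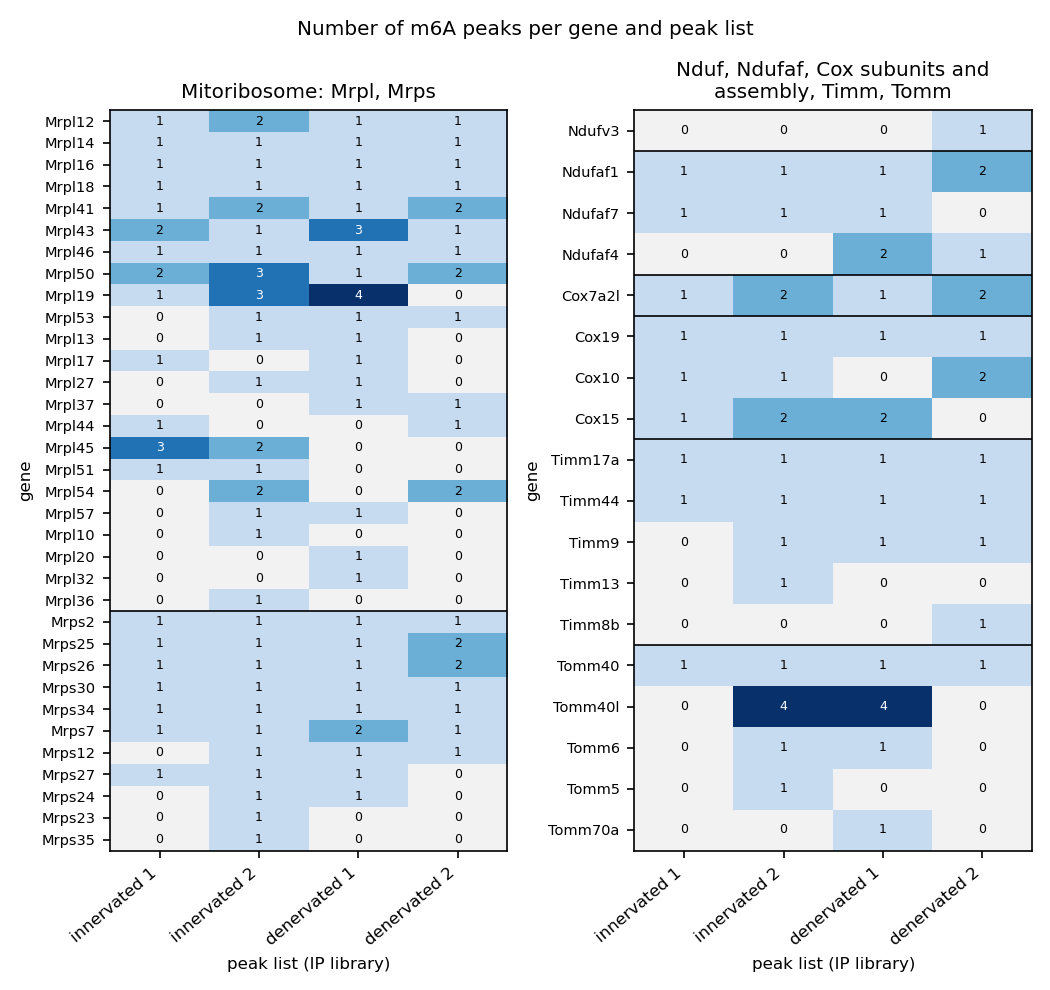
Number of m6A peaks of each of the 52 members in each of the 4 peak lists, shown as coloured cells with the count printed, and with lines between gene families. Rows full across all 4 columns are the 20 recurrent members, and cells with 0 are most frequent under innervated 1 and denervated 2.

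Calls that followed the nerve were few, 2 in each direction. Mrpl37 and Ndufaf4 were called in both denervated libraries and in neither innervated one (2 of 52, 3.85%, against 3.42% of other genes). Mrpl45 and Mrpl51 were called in both innervated libraries and in neither denervated one (2 of 52, 3.85%, against 3.13%). Both shares were near those of other genes, and a call of this kind rests on 2 libraries per group.

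Mrpl37 encodes a large subunit protein of the mitochondrial ribosome that bacterial ribosomes lack. Its peak lay at the 5′ end of the gene, at chr4:107066617-107066866 on the minus strand, and covered 0, 0, 150 and 250 bases. In denervated 2 it reached the RefSeq start site and in denervated 1 it began 100 bases further in. Cyb5rl overlaps it on the opposite strand, and none of the lists had an opposite-strand peak there.

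Ndufaf4 encodes an assembly factor of complex I. A spliced region at chr4:24898602-24901967 on the plus strand covered 0, 0, 200 and 349 bases, and all 200 bases of the denervated 1 peak were shared by the peak of denervated 2. A further peak of 100 bases, at chr4:24903161-24903260, was listed in denervated 1 alone. Within their lists the scores of the shared peaks stood at percentiles 87.5 and 85.6, where 100 is the smallest of the authors' scores. What the score measures is not given in the sources used here, so a percentile only places a peak within its own list.

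Mrpl45 encodes the ribosomal protein that ties the mitochondrial ribosome to the inner membrane. It had 3, 2, 0 and 0 peaks in regions at chr11:97328581-97328829 and chr11:97329077-97329672 on the plus strand. The first region covered 249 and 199 bases in the innervated libraries and the second 249 and 596. Mrpl51, another large subunit gene, had a single peak of 147 bases in each innervated library, at chr6:125193269-125193464 on the plus strand, and 98 of those bases were common to both. Its percentiles were low, 18.6 and 16.8, and those of Mrpl45 were 72.0 and 53.8.

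These calls depended on which peaks were kept. Among the smaller-score part of each list (50% of its peaks), Ndufaf4 and Mrpl45 kept their group-only calls and Mrpl37 and Mrpl51 did not. In the larger-score part Mrpl51 alone kept its call. With equal list lengths and with assignment by gene span, all of these genes kept their calls. Leaving out a library keeps each such call by definition and can only add others. Without innervated 1, the count of innervated-only members was 8 instead of 2, and without denervated 1 it was 6. Denervated-only members numbered 5 without innervated 2, 4 without denervated 1 and 5 without denervated 2.

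Among the large subunit genes, 8 were called in every library. Mrpl12, whose protein forms the stalk that recruits translation factors, had the longest coverage of these in a single library, with 650, 551, 350 and 799 bases at chr11:120485243-120488704, and 4 of its 5 peaks were spliced. Its percentiles of 11.3, 85.0, 31.5 and 93.8 ran from low to high within both groups. Mrpl41 covered 595, 497, 644 and 447 bases at chr2:24974200-24975049 near the 5′ end of its gene, at percentiles of 83.7 to 94.4. The other recurrent large subunit genes mostly carried their shared region near the 3′ end.

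Mrpl14 had the smallest stretch common to all 4 libraries, 50 bases at chr17:45698248-45698297, within peaks of 149, 199, 100 and 199 bases. Mrpl16 covered 392, 343, 294 and 343 bases at chr19:11774311-11774751, and Mrpl18 covered 240, 240, 240 and 288 at chr17:12911499-12913806. Both genes encode proteins with bacterial counterparts. Mrpl46, which has none, covered 197, 295, 295 and 148 bases at chr7:78775390-78775684. In all 4 of these genes the median peak position lay beyond 0.9 of the gene span.

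Mrpl43 and Mrpl50 had several regions. Mrpl43 had 2, 1, 3 and 1 peaks in 3 regions, of which chr19:45005402-45005887 was found in all libraries with 341, 389, 486 and 486 bases. Its gene overlaps Twnk, which encodes the mitochondrial DNA helicase, on the opposite strand. Mrpl50 had 2, 3, 1 and 2 peaks, and its shared region at chr4:49513477-49513868 covered 392, 343, 196 and 343 bases. The other region of Mrpl50 was missing in denervated 1 only.

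Mrpl19 was the ribosomal gene with the most regions, 5 in all, with 1, 3, 4 and 0 peaks. Its region at chr6:81961791-81962394 covered 351, 301 and 451 bases in the first 3 libraries and was not listed in denervated 2. In denervated 1, 94 bases of its peaks were also covered by a peak of Gcfc2 on the opposite strand, the sole case of this kind among the members. Large subunit genes called in 1 library included Mrpl10, with 298 bases in innervated 2, and Mrpl20, with 96 bases in denervated 1. Mrpl36 in innervated 2 and Mrpl32 in denervated 1 completed these.

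The remaining large subunit genes were called in 2 or 3 libraries without following the groups. Mrpl53 was called in all but innervated 1. Mrpl17 was called in both libraries numbered 1, with exactly the same 250 bases, Mrpl54 in both numbered 2, with the same 99 and 196 bases in 2 regions, and Mrpl44 in innervated 1 and denervated 2.

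Among the small subunit genes, Mrps25 had its best peaks at percentiles of 98.1, 87.3, 91.8 and 97.8. Its shared region at chr6:92174841-92175739 covered 399, 399, 349 and 349 bases. Mrps7, the counterpart of a bacterial protein that binds the small ribosomal RNA, had 687, 687, 688 and 687 bases at chr11:115606840-115607624. It had the most bases common to all libraries, 541, which the gap between the 2 peaks of denervated 1 divides. Mrps26 covered 482, 433, 385 and 338 bases at chr2:130564359-130565346. Both innervated values of Mrps25 and Mrps26 were above both denervated ones, and those of Mrps7 were alike to within 1 base.

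Mrps34 covered 300, 399, 350 and 400 bases at chr17:24895825-24896273 and Mrps2 covered 199, 446, 249 and 298 bases at chr2:28469495-28469940. Mrps30, named as a small subunit gene although its protein sits in the large subunit, covered 250, 448, 299 and 200 bases at chr13:118380309-118382962. Mrps12 was missing in innervated 1 only and Mrps27 in denervated 2 only. Mrps24 belonged to the pattern of innervated 2 and denervated 1, while Mrps23 and Mrps35 were called in innervated 2 alone, with 200 and 243 bases.

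For complex I the recurrent gene was Ndufaf1, an assembly factor of its membrane arm. Its region at chr2:119660076-119660656 ended at the same base on its 3′ side in every library and covered 436, 484, 532 and 581 bases, with both denervated values above both innervated ones. Ndufaf7, a methyltransferase that modifies a complex I subunit, had 99, 148, 148 and 0 bases at chr17:78946974-78947121.

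For complex IV, Cox7a2l covered 300, 300, 300 and 250 bases at chr17:83502167-83502466, with a further region of 101 bases in innervated 2 and denervated 2. Cox19, a copper-binding assembly protein, covered 477, 287, 619 and 714 bases at chr5:139337869-139345166, and its peaks in both denervated libraries were spliced and longer than those in the innervated ones. The heme A pathway genes were each missing once. Cox10, which farnesylates heme, covered 694, 645, 0 and 497 bases at chr11:63963716-63964409, and Cox15, the heme A synthase, covered 351, 351, 301 and 0 bases at chr19:43736452-43736802.

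The import members in all 4 libraries were Tomm40, Timm17a and Timm44. Tomm40 forms the pore of the outer membrane and covered 295, 295, 344 and 197 bases at chr7:19701362-19701705. Timm17a, a part of the inner membrane channel, covered 242, 290, 194 and 98 bases at chr1:135301680-135301969, with both innervated values above both denervated ones. Timm44, which couples that channel to the import motor, covered 348, 298, 249 and 446 bases at chr8:4259780-4260531.

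Order by group in covered length was as frequent in the members as elsewhere. Of the 20 member regions in all 4 libraries, 3 had both denervated values above both innervated ones (Cox19, Mrpl43 and Ndufaf1; 15.0%, against 14.8% of 4521 other regions). Another 3 had the opposite order (Mrps25, Mrps26 and Timm17a; 15.0%, against 13.3%). An exact permutation test of 2 against 2 libraries cannot go below 0.333 for such an order.

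Small chaperones of the intermembrane space were called less evenly. Timm9 covered 0, 244, 292 and 243 bases, Timm13 had 147 bases in innervated 2 alone and Timm8b had 240 bases in denervated 2 alone. In the outer membrane, Tomm5 was called with 98 bases in innervated 2 alone and the receptor gene Tomm70a with 200 bases in denervated 1 alone. Tomm40l, a paralogue of Tomm40, had 0, 4, 4 and 0 peaks in 5 regions of chromosome 1, at percentiles of 12.2 or less. Its gene overlaps Apoa2 and Nr1i3 on the opposite strand, as Tomm6 overlaps Frs3.

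Members carried fewer peaks than other genes in every library. Peaks per called gene were 1.14, 1.30, 1.28 and 1.27 for members and 2.25, 2.23, 2.14 and 2.25 for other genes. The mean difference was -0.969 ± 0.111 peaks (SD, n = 4 libraries), lower in 4 of 4 libraries. An exact two-sided sign-flip permutation test gave p = 0.13, the smallest that 4 libraries allow, and 0.208 after Benjamini-Hochberg adjustment over 5 such tests. Many of the same genes recur over the lists, so p-values of this kind cover libraries and not the spread over genes. Members had a shorter median span than other genes, 7224.5 against 25494 bases. Among genes with spans under 10000 bases the difference was -0.629 peaks per gene (exact permutation p = 0.13), in the same direction and smaller. The part of gene length in the difference was not tested.

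Regions, made by linking peaks of the 4 lists that share at least 1 base on the same strand, were also fewer per gene among the members. The members held 70 regions, 1.35 per gene, and other genes held 13046, or 2.21 per gene. A single region was found in 41 members (78.8%) and in 43.2% of other genes, and 8 members had 2 regions and 3 had more, namely Mrpl19, Mrpl43 and Tomm40l. All 4 libraries shared 20 of the 70 regions (28.6%), against 34.7% of other regions. Another 20 were found in 1 library (28.6%, against 32.3%). By region, 2 were denervated only (2.86%, against 3.67% of other regions) and 3 innervated only (4.29%, against 4.2%).

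**Figure D4:**
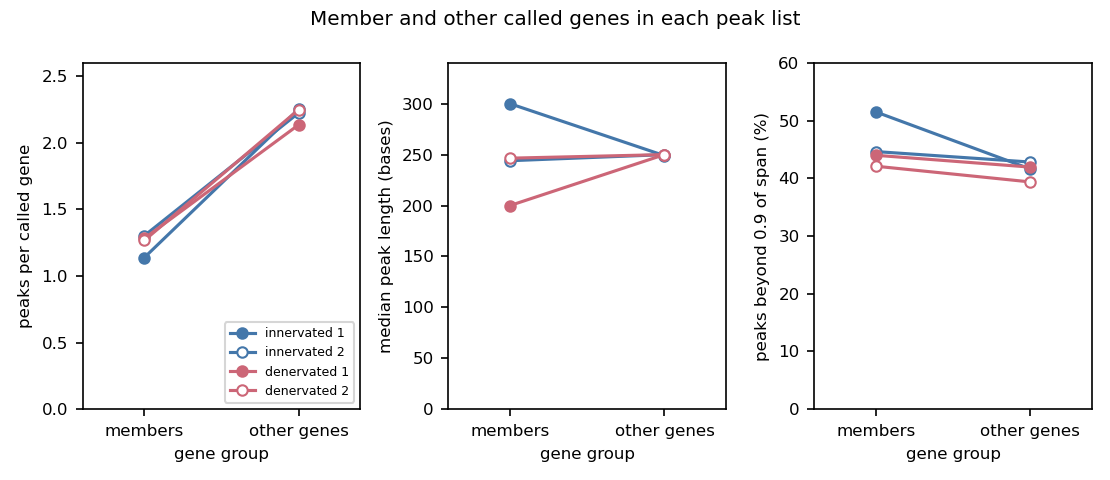
Peaks per called gene, median peak length in bases and percent of peaks beyond 0.9 of the gene span, for members and other genes, with 1 line per library. Peaks per gene rise from 1.14 to 1.30 for members to 2.14 to 2.25 for other genes in every library, while the lengths have no common direction.

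Peak width did not set the members apart. Median peak lengths were 300, 244, 200 and 246.5 bases for members and 249 to 250 for other genes. The mean difference was -2.13 ± 41.4 bases (SD, n = 4 libraries; exact permutation p = 0.75, adjusted p = 0.875). Single member peaks ran from 96 to 799 bases. Spliced peaks, whose blocks lie in more than 1 exon, made up 12.1%, 10.7%, 10.0% and 18.4% of member peaks and 11.5%, 12.5%, 11.6% and 14.8% of others, with no common direction (difference 0.213 ± 2.51 percentage points, exact permutation p = 0.875). The difference was 7.04 points in the smaller-score part of the lists and -4.03 in the larger-score part.

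Along the gene, member peaks gathered towards the 3′ end. The stretch beyond 0.9 of the gene span held 51.5%, 44.6%, 44.0% and 42.1% of member peaks and 41.6%, 42.8%, 42.0% and 39.4% of others. The difference was 4.12 ± 3.87 percentage points (SD, n = 4 libraries), higher in 4 of 4 libraries, with an exact permutation p of 0.13 and an adjusted p of 0.208. It was 11.8 points among genes under 10000 bases and turned to -3.58 in the smaller-score part of the lists. Without innervated 1 it was 2.19 points. Median positions were 0.871 of the span for member peaks and 0.852 for others. In bases, the median distance to the 3′ end was 630 for members and 3060 for others. The median gene spans were 7224.5 and 25494 bases, so these distances are not on a like scale.

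**Figure D5:**
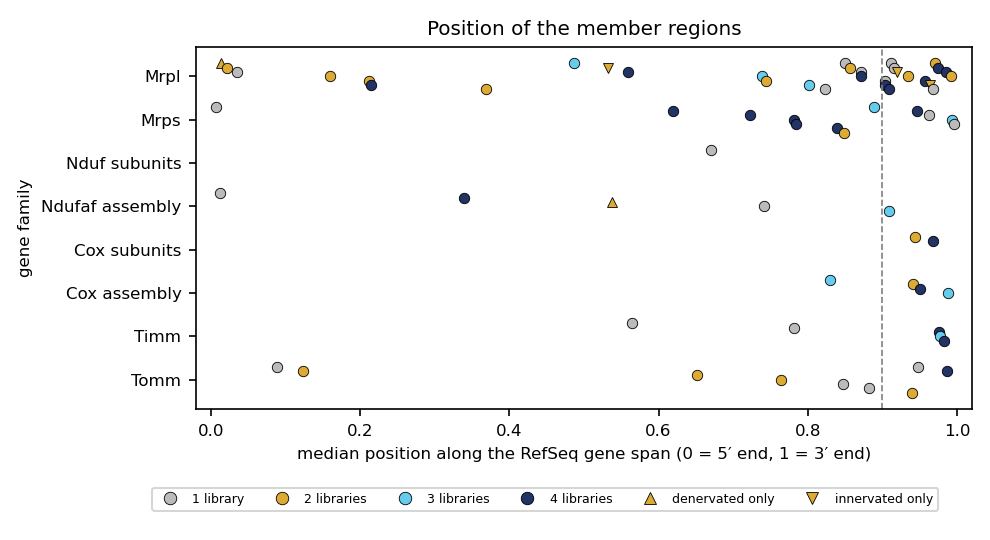
Median position of each of the 70 member regions along its RefSeq gene span, from the 5′ end at 0 to the 3′ end at 1, by gene family. Colour gives the number of libraries, and triangles are regions called in both libraries of 1 group and in neither of the other. Beyond the dashed line at 0.9 lie 30 regions, most regions of the Timm and Cox families among them. Those of Timm13 and Timm8b and a region of Cox15 lie before it.

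Of the 70 regions, 30 lay beyond 0.9 of the gene span and 6 within the same distance of the 5′ end. Among the 20 regions shared by all libraries, 11 lay beyond 0.9, and the 20 shared a median of 268.5 bases. Exon and UTR annotation was not used here, so positions are along the whole gene with its introns, and no peak can be placed in a coding or untranslated part.

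Peaks at the start of the transcript were rare. The first 50 bases after a RefSeq start site of their gene were touched by peaks of 5 members, Mrpl41, Mrpl37, Mrpl43, Ndufaf1 and Cox19. The shares of member peaks were 3.03%, 1.79%, 4.0% and 10.5%, from only 1, 1, 2 and 4 peaks. Those of other genes were 1.61%, 1.73%, 1.48% and 2.81%. The difference was 2.93 ± 3.35 percentage points, higher in 4 of 4 libraries (exact permutation p = 0.13, adjusted p = 0.208). Without denervated 2 the difference was 1.33 points. It was 9.45 points in the smaller-score part of the lists and -1.27 in the larger-score part. Mrpl41 reached the start in all 4 libraries, though only to base 50. In each innervated library its peak was the only such member peak, so the direction there rests on that base. The other 4 genes reached the start in 1 library each, Mrpl43 in denervated 1 and Cox19, Mrpl37 and Ndufaf1 in denervated 2. The first 30 transcribed bases of these 4 genes, from RefSeq on GRCm38.p6 and all on the minus strand, show what lay under or just before those peaks, with the core GGAC in capitals where it occurs.
Cox19 (chr5:139345137-139345166): ggatttcgccgtgatgtcgaccgcaatgaa
Mrpl37 (chr4:107066837-107066866): ggctcccagcagtccctgcacgggcaaaga
Mrpl43 (chr19:45006413-45006442): ggttagtcccgccccccggctccgcgtcct
Ndufaf1 (chr2:119662805-119662834): gggcgagaaaagtagaaGGACtattcgggg
The peaks of Cox19, Mrpl37 and Mrpl43 began at base 1, and the peak of Ndufaf1 began at base 37, after its GGAC at base 18. Of the 5 start sites, 2 had GGAC on the transcribed strand within 50 bases, those of Ndufaf1 and of Cox19, at base 36. The same letters occur in that window at 18.9% of 32851 start sites in the RefSeq table. A match describes these letters only and is no evidence of a methylated site.

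Complexes II, III and V were read from lists of their subunits and assembly factors. None of 18 ATP synthase genes had a peak, the assembly factors Atpaf1 and Atpaf2 included. In complex II, 3 of 8 genes had one, the assembly factors Sdhaf1, Sdhaf2 and Sdhaf3, while the assembly factor Sdhaf4 and the subunits Sdha to Sdhd had none. In complex III, 4 of 15 had one, the assembly factors Uqcc1, Uqcc3, Ttc19 and Lyrm7, while the assembly factors Uqcc2 and Bcs1l, the Uqcr subunits and Cyc1 had none. Sdhaf1, Sdhaf2, Uqcc1, Uqcc3 and Ttc19 were called in all 4 libraries. These genes were in lists written with earlier results of these data known, and no test was made between subunits and assembly factors.

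Assembly factors of complexes I and IV under other names were listed in 12 of 21 cases (57.1%), and 19.0% were called in all 4 libraries. Of other protein-coding genes 26.4% had a peak and 13.0% had one in all 4 libraries. Coa3, Coa7, Sco2 and Taco1, all of complex IV, were called in all 4 libraries. Lyrm2, with 0, 0, 2 and 2 peaks, and the copper chaperone gene Sco1, with 0, 0, 1 and 1, were denervated only. Coa6, another copper protein of complex IV assembly, was innervated only, with 1, 1, 0 and 0 peaks. Set against 3.42% and 3.13% of other called genes, these are 2 and 1 of the 12 genes with a peak.

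Genes of mitochondrial translation other than ribosomal proteins had a peak in 23 of 33 cases (69.7%), and 5 (15.2%) were called in all 4 libraries. Of other protein-coding genes 26.4% had a peak and 13.0% had one in all 4. The 5 were the initiation factor Mtif3, the ribosomal RNA chaperone Eral1 and the tRNA synthetases Fars2, Mars2 and Pars2. Gfm2, a factor of ribosome recycling, was innervated only, with 1, 1, 0 and 0 peaks, as were 3.13% of other called genes. Import genes outside the name pattern had a peak in 5 of 22 cases (22.7%), below the share of other protein-coding genes. Grpel2, Chchd4, Gfer and Oxa1l were called in all 4 libraries (18.2% of the list, above the 13.0% of other protein-coding genes). Genes that control mitochondrial mass and DNA had a peak in 19 of 33 cases (57.6%), 10 of them (30.3% of the list) in all 4 libraries, among them the coactivators Ppargc1a and Ppargc1b, the transcription factor Nrf1 and the mitochondrial DNA factor Tfam. No gene of the import and control lists was called in both libraries of 1 group and in neither of the other.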

How the data were processed

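Male mouse gastrocnemius was profiled by m6A MeRIP-seq with a strand-preserving total RNA kit, per the labels' protocols. The authors deposited 4 peak lists, 1 per immunoprecipitated library, on mm10. ChIPseeker, STAR 2.4.2a and the mm10 build are listed in the submitters' processing notes, without roles, and no source used here names the peak caller. The value of each peak is called score per the file headers and ran from 0 to 0.023. It was used to rank and filter peaks within a list.

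Member names were matched by pattern, and the members and gene lists were chosen with earlier results of these data known. Named genes were every member called in all 4 libraries or in 1 group only, in each family the gene with the most regions and the first 2 called in 1 library, and of the other lists every group-only gene and the first 4 called in all 4; other names were chosen after their values were seen. Of 5987 listed names, 5725 matched RefSeq symbols, 249 older symbols and 13 none. Positions use RefSeq gene spans. Peaks sharing at least 1 base on 1 strand were linked into regions, a step tested on simulated data. Group-only calls need both libraries of 1 group and neither of the other. Tests were exact permutations over libraries (scipy 1.17.1). The share at start sites and the limit of 10000 bases were added after the data were seen. Comparisons with other genes under the alternative settings were not planned. Alternatives were the 50% of peaks with the smallest or largest scores, equal list lengths, assignment by gene span, 50% reciprocal overlap, a replicate block, genes under 10000 bases and leaving out each library. Depth is unknown, so absent peaks carry no limit of detection.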

Additional observations from a re-analysis of the deposited data

How the results depend on the processing

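The cause of the shifts below was not tested, beyond the fewer peaks or libraries that a setting uses. With the 50% of peaks of smallest score, the denervated minus innervated difference in member peaks was 0.0, peaks per member gene 1.32, spliced peaks 20.9%, peaks beyond 0.9 of the gene span 34.4% and members in all 4 libraries 2. With the 50% of largest score, the difference in member genes was 0.0, spliced peaks 7.31%, peaks beyond 0.9 of the span 53.8% and members in all 4 libraries 5. With lists of equal length the peak difference was 0.5 and 11 members were in all 4 libraries, all of them among the 20. With assignment by gene span the peak difference was 0.0 and the share beyond 0.9 of the span 41.4%. A reciprocal overlap of 50% changed no count of group-only regions.

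Against other genes, the smaller-score peaks gave a length difference of 3.25 bases and, for the share beyond 0.9 of the span, a difference of -3.58 points, with 7.04 points for spliced peaks and 9.45 for start peaks. The larger-score peaks gave 0.875 bases, -4.03 points for spliced peaks and -1.27 points for start peaks. Genes under 10000 bases gave 19.6 bases. The lower number of peaks per gene held its direction under these settings and without each library in turn.

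Leaving out 1 library at a time, the group difference ran from -8.5 to 5.5 member genes and from -12.0 to 11 member peaks, positive without innervated 2 or denervated 2. Denervated-only counts ran from 2 to 5 genes and 2 to 10 regions, and innervated-only counts from 2 to 8 genes and 4 to 11 regions. Such gene counts cannot fall when a library is left out, because fewer libraries then define a call. The length difference to other genes ran from -19.8 to 13.8 bases, the spliced difference from -0.923 to 0.874 points, the difference beyond 0.9 of the span from 2.19 to 4.89 and the start difference from 1.33 to 3.88. With the replicate block, pairing libraries by number, the differences stayed at -1.5 genes and -0.5 peaks, because the pairs differed by 10 and -13 genes (exact sign-flip p = 1, smallest possible 0.5), and no call changed. Unknown depth limits every absent call.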
